A study of Mus musculus with 8 samples.

Results

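The cytoplasmic ribosomal protein genes encode the proteins of the large (Rpl) and small (Rps) subunits of the ribosome that translates nuclear mRNAs. They were taken from the array by the gene symbols that its files carry, Rpl or Rps with a number and at most one further letter and digit, plus Rplp0, Rplp1, Rplp2 and Rpsa, without the ribosomal S6 kinases. This gave 80 genes, 48 of the large and 32 of the small subunit, on 134 of 41174 non-control probes. They were measured after RNA immunoprecipitation (RIP), in which an antibody pulls a protein and its bound RNA out of a lysate, and the antibody was against the germ cell RNA-binding protein DAZL. RNA recovered with the antibody (IP) and RNA of the cleared lysate (input) were each labelled with Cy3 and hybridized to 1-colour Agilent mouse arrays. The 4 groups of 2 arrays were XX input, XX IP, XY input and XY IP, all from gonads of E14.5 (embryonic day) mouse embryos with strain background MCH, and the labels name no mutation or treatment for any of them. Each lysate held 50 pooled gonads, germ cells and somatic cells together, and 5% of it was kept as input. No IP with a control antibody was used here.

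A ribosome holds its proteins in near-equal copy number, and the genes for them are transcribed in most cells at high and coordinated levels. Most of their mRNAs start with a C followed by a short run of pyrimidines, the 5′ terminal oligopyrimidine (TOP) tract, through which their translation is raised and lowered together with cell growth. DAZL is known to bind U-rich sites, mostly in 3′ untranslated regions, and to promote the translation of germ cell mRNAs. Large subunit proteins lie around the peptidyl transferase centre, which is made of rRNA, along the tunnel through which the new chain leaves and in the acidic stalk that recruits elongation factors, while small subunit proteins form the head, body and platform where mRNA is decoded.

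The start sites are shown because the TOP tract, for which these mRNAs are known, begins at the start of transcription. A RefSeq (GRCm38.p6) promoter was found by gene symbol for 60 of the 80 genes, with 71 start sites in all. The lines below give 30 bases each for 8 of them, 15 before the annotated start and 15 from it on, with the longest run of C and T in capitals. The genes stand in the order of their difference between IP and input in XX gonads, from the lowest to the highest. These 8 do not stand for the whole set. All but Rps28 hold a run of at least 7 pyrimidines, a larger share than among the 71 windows. In the window of Rplp0, the gene with the lowest difference, the longest run was 5 bases.
Rpl35, chr2:39005117-39005146, minus strand: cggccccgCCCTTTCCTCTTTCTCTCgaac
Rpl28, chr7:4792950-4792979, plus strand: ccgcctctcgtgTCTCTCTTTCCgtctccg
Rps6, chr4:86857353-86857382, minus strand: aagcggaagtcgggCCTCTTTTTCgtgacg
Rps27, chr3:90213634-90213663, minus strand: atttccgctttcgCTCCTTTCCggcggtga
Rps18, chr17:33955651-33955680, minus strand: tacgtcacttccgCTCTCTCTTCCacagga
Rplp2, chr7:141447636-141447665, plus strand: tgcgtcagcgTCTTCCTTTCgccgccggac
Rps28, chr17:33824548-33824577, minus strand: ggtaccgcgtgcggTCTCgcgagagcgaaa
Rps27l, chr9:66946071-66946100, plus strand: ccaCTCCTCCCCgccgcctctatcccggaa
A run of at least 7 pyrimidines lay in 32 of the 71 windows (45.1%), against 18.6% of all 32851 promoter entries in the table. The letters CGGAAG, on either strand, were found in 42 of the 71 promoters of 300 bases (59.2%) and in 16.9% of all. The 32 genes with such a run had a median IP minus input difference of -2.35 (log2) in XX and -1.59 in XY, and the 28 genes without one -1.99 and -1.44. A run counted here may lie before the annotated start and then outside the mRNA, as in the window of Rps27l. Rplp2, whose window holds a run, and Rps28, whose window does not, are both among the genes that were not called in either sex.

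All values below are log2 of the processed signal over the 75th percentile of the signals on the same array, so that 0 is a probe at that percentile. The inputs had 16707 to 20381 probes well above background and the IPs 6057 to 9462. Labelling started from 50 ng of input RNA and from 1 ng of IP RNA, so the amount of RNA labelled and the immunoprecipitation cannot be told apart. XX arrays lay on 1 slide and XY arrays on another, so sex and slide cannot be told apart either. Germ cell markers were detected in the gonads of both sexes: 6 of 7 germ cell markers were above background on both XX inputs and 7 of 7 on both XY inputs. Dazl, the gene of the protein pulled down, rose in the IP at both of its probes in both sexes, by 2.06 to 3.09 (adjusted p at most 0.00201, limma).

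The ribosomal protein genes were among the brightest probes on the arrays. Of their 134 probes, 124 passed the filter on dim signals, and 104 were above background on all 8 arrays. A gene was read at its tested probe with the highest mean, and 76 of the 80 probes used in this way were above background everywhere. In XX gonads the median level of the 80 genes was 8.04 and 8.37 in the inputs against 5.55 and 6.32 in the IPs. In XY gonads it was 8.09 and 8.28 in the inputs against 6.14 and 7.02 in the IPs. It was lower on every IP array than on every input array, but it still lay above that of at least 96.6% of all tested probes on each IP array. Within each sex the IP labelled replicate 2 gave the higher values, for 78 of 80 genes in XX and 77 of 80 in XY, with a median gap of 0.80 and 0.76. The inputs went the same way by less, with replicate 2 higher for 66 of 80 genes in each sex and median gaps of 0.28 and 0.18.

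**Figure D1:**
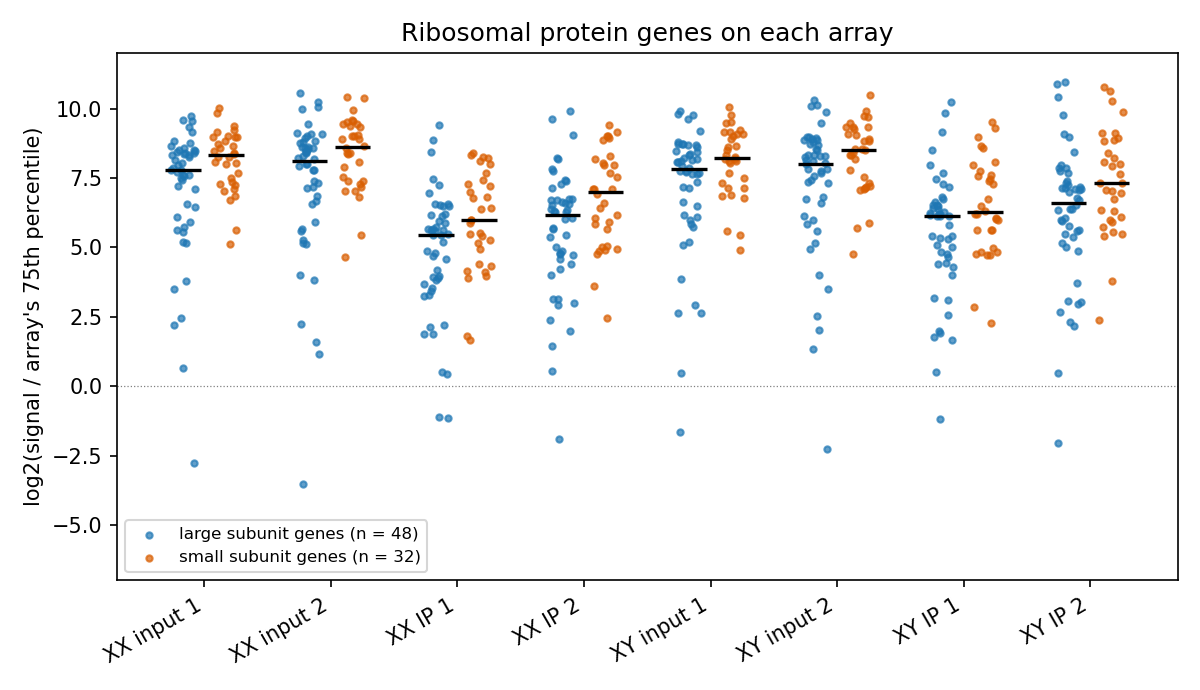
Level of each ribosomal protein gene on each of the 8 arrays, as log2 of the signal over the array's 75th percentile, with large (48) and small (32) subunit genes in separate colours, 1 point a gene and a black bar at the median of each subunit. The points of the 4 input arrays centre near 8, and those of the IP arrays centre between 5.55 and 7.02, with Rpl3l at or near the bottom of every array.

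To see how these mRNAs were recovered with the DAZL antibody in fetal ovaries, the XX IP was compared with the XX input. Transcripts of 62 of the 80 genes fell in the IP and 3 genes were called higher (limma, adjusted p under 0.05), 1 of them not above background in the IP, where 22.8% of all 18253 tested probes fell and 25.9% rose. A fall of at least 4-fold was found for 46 genes, against 9.92% of all tested probes. Both IP arrays lay below both input arrays for 70 genes, against 37.5% of tested probes. The median difference of the 80 genes was -2.17, against 0.09 for all tested probes. Scaling each array to its 50th percentile moved the median of all tested probes to -1.92 and that of the 80 genes to -4.18, a shift by 1 constant an array that leaves the gap between them at -2.26.

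The lowest differences in XX belonged to the probes read for Rplp0, Rpl35, Rpl28, Rps3a and Rpl24. The place of Rplp0 holds for the probe that carries this symbol, since probes under its older name, given further on, fell by less. Rplp0 encodes the base of the acidic stalk, and its probe (A_51_P344103, mm8 chromosome 5, 115821920 to 115821979) read 5.55 and 5.12 in the XX inputs against 0.51 and 1.98 in the XX IPs, where 1 of the IP arrays was above background. The IP arrays lay below the inputs, a difference of -4.09 ± 0.51 (SE) or 17.1-fold (adjusted p = 0.000156, limma). Rpl35, a protein at the rim of the exit tunnel (A_51_P132715, mm8 chromosome 2, 38823732 to 38826132), read 7.78 and 8.01 on the inputs and 3.94 and 4.72 on the IPs, 11.8-fold lower (adjusted p = 0.000116, limma). Rpl28 of the large subunit read 7.85 and 7.93 on the inputs and 3.97 and 4.78 on the IPs, 11.5-fold lower (adjusted p = 0.000134, limma). For both genes the higher IP array was over 3 log2 units below the lower input array. Rps3a of the small subunit went from 7.51 and 7.38 to 3.89 and 4.75, 8.72-fold lower (adjusted p = 0.000252, limma). Its second probe, also above background on all 8 arrays, gave -1.70, so its place among the lowest holds for the probe read. Rpl24, a large subunit protein at the interface of the subunits, went from 5.63 and 5.66 to 2.14 and 3.00, 8.41-fold lower (adjusted p = 0.000249, limma).

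At the other end, 15 genes were not called lower or higher in XX. They were Rpl10, Rpl27, Rpl30, Rpl31, Rpl32, Rpl36a, Rpl37a, Rplp1, Rplp2, Rps3, Rps7, Rps10, Rps14, Rps21 and Rps28, with differences from -1.38 (Rpl32) to -0.07 (Rpl31). Rplp1, a protein of the stalk that binds elongation factors, read 9.60 and 10.55 in the XX inputs against 9.39 and 9.92 in the XX IPs. Its groups overlapped, with a difference of -0.42 ± 0.50 (adjusted p = 0.503, limma). Rps14, a protein of the platform, read 8.98 and 9.02 on the inputs and 7.99 and 9.01 on the IPs, again with overlap (-0.50 ± 0.51, adjusted p = 0.435, limma).

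The 3 genes called higher in XX were Rpl21, Rps27l and Rpl3l. Rpl21, a large subunit protein, was read at a probe for a predicted transcript (A_52_P258959) with 0.65 and 1.14 on the inputs and 3.28 and 3.16 on the IPs, a 5.00-fold rise (adjusted p = 0.00114, limma). Its probe for the RefSeq mRNA was above background on neither XX IP array and gave -0.26 (adjusted p = 0.708, limma), so the rise rests on 1 of the 2 probes. Rps27l, a paralog of Rps27 known as a p53-induced gene, read 6.69 and 7.03 on the inputs and 8.25 and 9.41 on the IPs, 3.91-fold higher (adjusted p = 0.0127, limma). It was -0.041 under 50th percentile scaling, where the median of all tested probes was -1.92, and -0.21 after normexp background correction. Rpl3l, a muscle paralog of Rpl3, was above background on 1 XX input and on neither XX IP, so its call rests on signals near background and no fold is given for it.

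**Figure D2:**
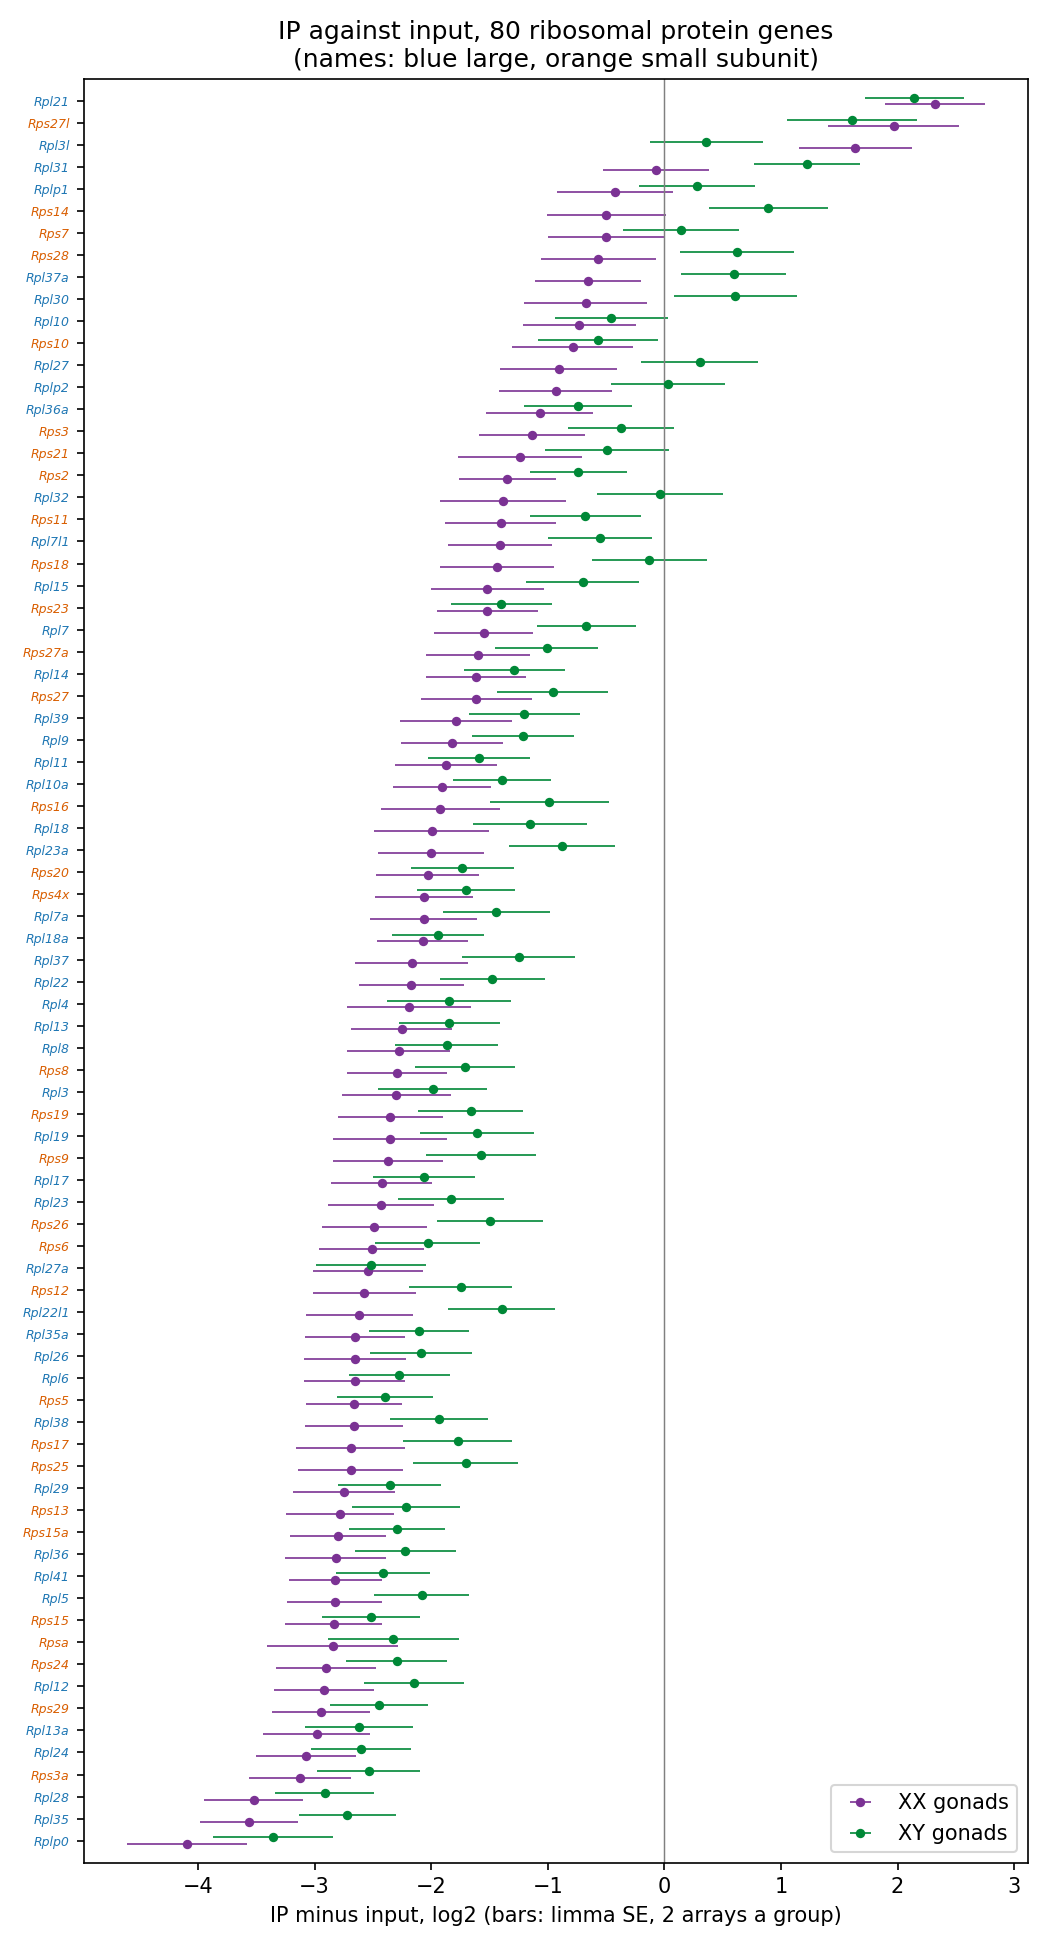
IP minus input difference (log2, points) with its standard error from limma (bars, 2 arrays a group) for each of the 80 genes, ordered by the XX value, XX and XY gonads in separate colours and names coloured by subunit. Most points of both sexes lie left of 0, 77 of 80 in XX and 68 of 80 in XY. Rpl21, at 1 of its 2 probes, and Rps27l are called to the right of it in both.

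In fetal testes fewer genes passed the test in the same direction. Of the 80 genes, 49 fell and 3 rose in the XY IP, where 20.6% of all tested probes fell and 20.2% rose. A fall of at least 4-fold was found for 24 genes, against 7.69% of tested probes, and both IP arrays lay below both input arrays for 61 genes, against 37.2%. The median difference was -1.58, and that of all tested probes was -0.04. The number that fell was 32 without XY input replicate 1 and 27 without replicate 2, in fits where the lone array left in the group is assumed to vary like the other groups. The number that rose was 0 without XY input replicate 1, and 1 without XY input replicate 2 or without XY IP replicate 2.

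The lowest 5 in XY were Rplp0, Rpl28, Rpl35, Rpl13a and Rpl24, of which Rpl13a was not among the lowest 5 in XX. Rplp0 read 5.74 and 5.58 in the XY inputs against 1.92 and 2.69 in the XY IPs, 10.2-fold lower (adjusted p = 0.000571, limma). Rpl28 read 7.66 and 7.57 on the inputs and 4.39 and 5.02 on the IPs, 7.54-fold lower (adjusted p = 0.000441, limma). Rpl13a, known also as a component of an interferon-gamma response that silences mRNAs, read 7.34 and 7.36 on the inputs and 4.28 and 5.17 on the IPs, 6.16-fold lower (adjusted p = 0.00132, limma). In each of these the 4 arrays fell into separate ranges. All 49 genes that fell in XY also fell in XX, and so did all 24 with at least a 4-fold fall.

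The genes that rose in XY were Rpl21, Rps27l and Rpl31. Rpl21 read 0.49 and 1.35 on the inputs and 3.16 and 2.96 on the IPs, 4.42-fold higher (adjusted p = 0.0025, limma). Its other probe gave -0.17 in XY, so this rise too rests on 1 of 2 probes. Rps27l read 5.45 and 5.89 on the inputs and 6.49 and 8.07 on the IPs, 3.05-fold higher (adjusted p = 0.0377, limma), and -0.25 under 50th percentile scaling, which moved the median of all tested probes in XY to -1.90. Rpl31, at the rim of the exit tunnel, read 3.88 and 4.01 on the inputs and 4.75 and 5.58 on the IPs (1.22 ± 0.46, adjusted p = 0.0496, limma), and -0.64 under that scaling. The highest among the others were Rps14, at 9.09 and 9.03 on the inputs and 9.28 and 10.63 on the IPs (0.89 ± 0.51, adjusted p = 0.179, limma), and Rps28, at 8.91 and 9.10 against 8.98 and 10.27 (0.62 ± 0.49, adjusted p = 0.332, limma). Both had their highest value on XY IP replicate 2.

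Proteins of the large and small subunits were then set side by side. In XX, 37 of 48 large and 25 of 32 small subunit genes fell, with medians of -2.17 and -2.18. In XY, 30 of 48 and 19 of 32 fell, with medians of -1.53 and -1.62. The large subunit median was thus 0.01 above that of the small subunit in XX and 0.09 above it in XY. Read on each IP array against the mean of its inputs, this gap was -0.07 and 0.09 in XX, and 0.10 and 0.08 in XY. In XX its sign differed between the IP arrays, and in XY it was -0.0012 without XY input replicate 2. With the mean over all tested probes of a gene in place of the brightest, the gap was -0.40 in XX and -0.07 in XY, so its direction depended on which probes stood for a gene. At matched input level, described further on, the large subunit had the lower median in both sexes.

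By position in the ribosome, the medians of the groups lay close together outside the stalk. The counts of genes that fell stand beside 22.8% of all tested probes in XX and 20.6% in XY. The 4 stalk genes, Rplp0, Rpl12, Rplp1 and Rplp2, spanned -4.09 to -0.42 in XX and -3.36 to 0.28 in XY, and 2 of them fell in each sex. Rpl12, which joins the stalk to the ribosome, read 8.76 and 9.10 in the XX inputs against 5.68 and 6.34 in the XX IPs (7.58-fold lower, adjusted p = 0.000318, limma), and in XY it was 4.43-fold lower (adjusted p = 0.00262, limma). Rplp2, which pairs with Rplp1, read 9.35 and 10.00 in the XX inputs against 8.45 and 9.03 in the XX IPs (-0.93 ± 0.49, adjusted p = 0.131, limma). In XY it read 9.62 and 9.89 against 9.17 and 10.40 (0.03 ± 0.49, adjusted p = 0.965, limma). Within the stalk, then, Rplp0 and Rpl12 passed the test and Rplp1 and Rplp2 did not. This contrast depended on the background correction: after normexp with outlying backgrounds replaced, Rplp1 was -2.59 in XX and -1.88 in XY and Rplp2 was -3.14 and -2.25, all past the test (adjusted p at most 0.0313, limma).

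Rpl5 and Rpl11, which carry the 5S rRNA and hold the p53 regulator MDM2 when ribosome assembly fails, both fell in both sexes at the probes read. Rpl5 read 8.51 and 8.62 in the XX inputs against 5.44 and 6.03 in the XX IPs, 7.11-fold lower (adjusted p = 0.00029, limma), and was 4.23-fold lower in XY (adjusted p = 0.00235, limma). Rpl11 read 8.52 and 9.02 against 6.52 and 7.27 in XX, 3.67-fold lower (adjusted p = 0.00459, limma), and was 3.01-fold lower in XY (adjusted p = 0.0137, limma). The second probe of Rpl11, not above background on all 8 arrays, gave -0.15 in XX and -0.04 in XY, so its fall rests on 1 of 2 probes. Of the 9 genes of the exit tunnel and its rim, 8 fell in XX (median -2.35), while in XY 6 fell and Rpl31 rose (median -1.61). Near the peptidyl transferase centre, 3 of 4 genes fell in each sex, with medians of -2.23 and -1.86. Rpl3, one of these 4, read 7.59 and 7.38 in the XX inputs against 4.70 and 5.68 in the XX IPs, 4.92-fold lower (adjusted p = 0.00198, limma). The fourth, Rpl10, which completes the subunit late in its assembly, did not pass the test, with 7.60 and 7.78 against 6.50 and 7.43 in XX (-0.73 ± 0.48, adjusted p = 0.229, limma).

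In the small subunit, 11 of 14 head genes fell in XX and 8 in XY, with medians of -2.19 and -1.68. Of 17 body and platform genes, 14 fell in XX and 11 in XY, with medians of -2.29 and -1.57. Rps6, the substrate of S6 kinase, read 7.11 and 6.83 in the XX inputs against 3.98 and 4.94 in the XX IPs, 5.69-fold lower (adjusted p = 0.000998, limma), and was 4.08-fold lower in XY (adjusted p = 0.00449, limma). Rps3, which lies at the mRNA entry, read 8.36 and 8.36 against 6.79 and 7.66 in XX, where the groups were apart but the test was not passed (-1.13 ± 0.46, adjusted p = 0.0572, limma). Its second probe fell in XX (-1.64 ± 0.54, adjusted p = 0.0261, limma) and gave -0.84 in XY (adjusted p = 0.236, limma). Rpsa, also known as the laminin receptor, read 5.63 and 5.45 against 1.80 and 3.60 in XX, 7.18-fold lower (adjusted p = 0.00174, limma), while its second probe gave 0.28 (adjusted p = 0.659, limma). Rps27a, made as a fusion with ubiquitin, was 3.03-fold lower in XX (adjusted p = 0.0112, limma) and -1.01 ± 0.44 in XY (adjusted p = 0.0881, limma).

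Since bright probes as a class were lower in the IPs, the genes were next compared with probes of like input level. For each gene, the median difference of the 100 other tested probes nearest to it in mean input level of the same sex was subtracted. The median of what was left was -0.39 in XX, with 50 genes below 0 and 30 above, and -0.25 in XY, with 47 below and 33 above. On the IP arrays taken singly it was -0.44 and -0.38 in XX, and -0.18 and -0.26 in XY. With the 50 nearest probes it was -0.25 in XX and -0.11 in XY. Large subunit genes had medians of -0.43 and -0.32 after matching, and small subunit genes -0.20 and -0.17, so the order of the subunits was the reverse of that before matching. The values subtracted had a median of -1.97 in XX and -1.47 in XY. For the brightest genes they came from probes that were not of like signal, as given below.

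The comparison with other probes changed along the range of input levels. Above an input level of 8, the 44 ribosomal protein genes had a median of -2.04 in XX, and the 36 other tested probes there had -2.08, with 80.6% of these called lower. In XY the same figures were -1.59 for 43 genes and -1.61 for 40 other probes, 65.0% of them called lower. Many of these other probes name a ribosomal protein themselves, and without them the others had -1.81 in XX (22 probes) and -1.45 in XY (25 probes). Between 6 and 8, the 23 genes had -2.37 in XX against -1.61 for 259 other probes, and -1.57 in XY against -1.23 for 293. Between 4 and 6 the gap was wider, with -2.84 for 7 genes against -0.98 for 1197 other probes in XX, and -2.43 for 8 genes against -0.83 for 1225 in XY. Rpl24 and Rplp0 lay in this range, at -2.03 and -2.90 from their matched probes in XX, the latter with 1 XX IP array above background. The bands below 4 held at most 4 genes each and were not compared. At the brightest levels few other probes existed, and the nearest 100 reached as far as 3.05 log2 units from a gene.

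**Figure D3:**
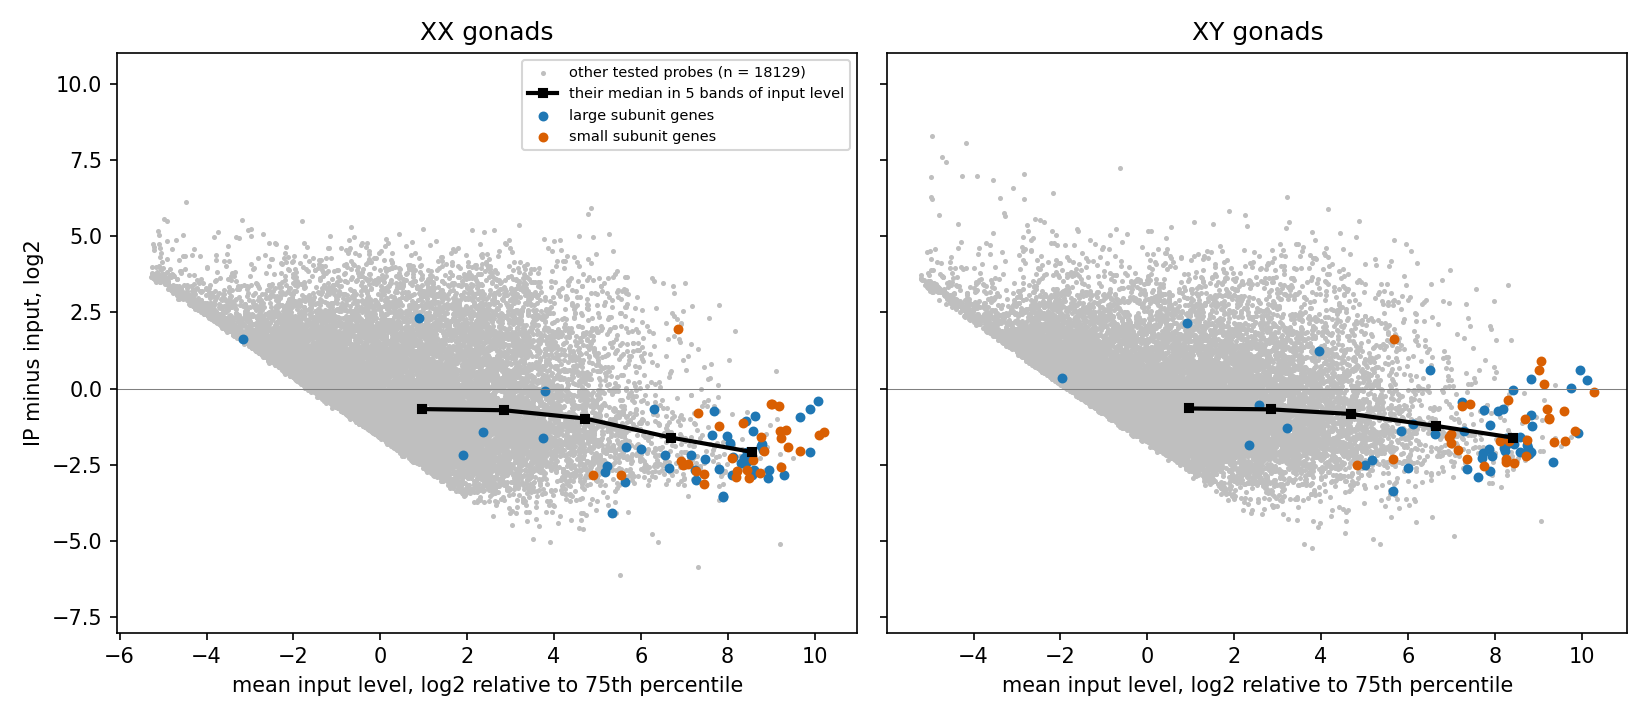
IP minus input difference (log2) against the mean input level (log2 relative to the 75th percentile) in XX and XY gonads, with the other tested probes in grey, their median in 5 bands of input level in black, and the large and small subunit genes in colour. The black line falls toward bright probes, to -2.08 in XX and -1.61 in XY, and the ribosomal protein genes sit around it above an input level of 8 and mostly below it between 4 and 8.

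Whether the fall differed between ovaries and testes was tested on the difference of the differences. None of the 80 genes passed (limma, smallest adjusted p = 0.358), and none had an unadjusted p under 0.05, which 16.4% of all tested probes had. Over all tested probes, 2.17% were called with the greater IP minus input difference in XX and 1.12% with the smaller. The XX minus XY value was negative for 77 of the 80 genes, with a median of -0.61. The SE of a single gene's value had a median of 0.64. Other tested probes with an XX input level above 8 had a median of -0.52, with 86.1% negative, so a lower value in XX was common to bright probes. The lowest values were those of Rps14 (-1.39 ± 0.72, adjusted p = 0.377, limma), Rpl32 (-1.35 ± 0.77, adjusted p = 0.43) and Rps18 (-1.31 ± 0.69, adjusted p = 0.391). Rps18, of the small subunit head, was 2.70-fold lower in the XX IP (adjusted p = 0.0301, limma) and -0.13 ± 0.49 in XY. The highest values were those of Rpl3l, Rps27l (0.36 ± 0.79) and Rpl21 (0.18 ± 0.60). The 13 genes called lower in XX and not in XY are therefore not shown to differ between the sexes.

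**Figure D4:**
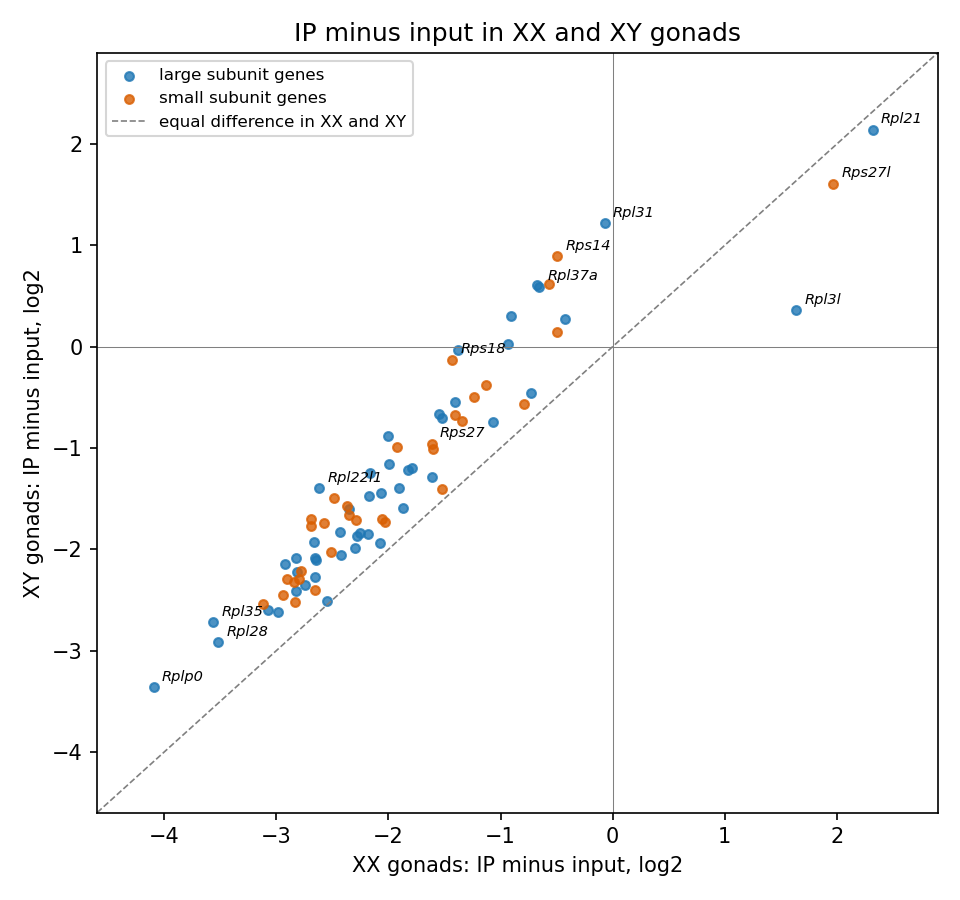
IP minus input difference (log2) of each ribosomal protein gene in XX gonads (horizontal axis) and XY gonads (vertical axis), large and small subunit genes in separate colours, with a dashed line where both are equal. Of the 80 points, 77 lie above the dashed line, by a median of 0.61, and the order of the genes is similar in both sexes (Pearson r = 0.935, Spearman rho = 0.953 across genes, which are not independent and share their arrays within a sex).

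The input levels were compared between ovaries and testes to see whether these genes differed before the pull-down. None of the 80 was called (limma, smallest adjusted p = 0.150), and 1 had an unadjusted p under 0.05, where 5.87% of all tested probes were called higher in XX, 6.08% lower, and 23.8% had an unadjusted p under 0.05. In whole gonads a higher level and a larger share of the cells that carry the transcript cannot be told apart. The lowest XX minus XY values were those of Rpl3l (-1.19 ± 0.48), which gave the 1 unadjusted p under 0.05, Rpl22l1 (-0.64 ± 0.46) and Rpl6 (-0.45 ± 0.43). Rpl3l was above background on 1 XX input and tested because of the XY inputs, so its value is partly set by the filter. The highest were those of Rps27l (1.20 ± 0.56, adjusted p = 0.222, limma), Rpl14 (0.54 ± 0.43) and Rpl22 (0.53 ± 0.45). Rps27l read 6.69 and 7.03 in the XX inputs against 5.45 and 5.89 in the XY inputs, without overlap. Rpl22l1, a paralog whose RNA is regulated by RPL22, read 6.46 and 6.84 in the XX inputs against 7.13 and 7.44 in the XY inputs, also without overlap.

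Paralogs of core members were read beside the genes they resemble, each against its own input. Rps27 fell 3.06-fold in XX (9.03 and 9.44 on the inputs, 7.21 and 8.03 on the IPs, adjusted p = 0.0152, limma), while Rps27l rose. In XY Rps27 read 9.16 and 9.34 against 7.73 and 8.85 (-0.96 ± 0.48, adjusted p = 0.128, limma). Rpl22 and Rpl22l1 both fell, by 4.50-fold and 6.13-fold in XX (adjusted p = 0.00235 and 0.000861, limma) and by 2.78-fold and 2.63-fold in XY (adjusted p = 0.0217 and 0.0297, limma). The second probe of Rpl22 gave -0.46 in XX and 0.48 in XY, neither past the test. Rpl7 and Rpl7l1, the latter dim and above background on 1 XX IP array, gave -1.55 and -1.41 in XX and -0.67 and -0.55 in XY. The other 2 probes of Rpl7 gave -2.23 and -2.14 in XX and -1.59 and -1.47 in XY, and both fell in XY too (adjusted p = 0.0157 and 0.0191, limma), so the likeness to Rpl7l1 holds for 1 of its 3 probes. Rpl3 fell, and Rpl3l was not above background on any IP array. No probe for Rpl10l was among these. A further paralog, Rpl39l, which is known for its expression in male germ cells, is listed under an older name that the symbol rule does not take. One of its probes rose by 2.20 in XX and 1.69 in XY (adjusted p = 0.00463 and 0.0216, limma), and the other gave 0.68 (adjusted p = 0.292, limma) and 1.52 (adjusted p = 0.0339, limma). The first of these was dim in XX, at -1.81 and -1.31 on the inputs and 0.06 and 1.21 on the IPs. Rpl39 itself, a small protein of the exit tunnel, was 3.45-fold lower in XX (adjusted p = 0.00919, limma) and -1.20 ± 0.48 in XY (adjusted p = 0.0629, limma). The input level of Rpl39l was lower in XX than in XY at both probes, by -2.51 and -2.17 (adjusted p = 0.00695 and 0.0156, limma).

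**Figure D5:**
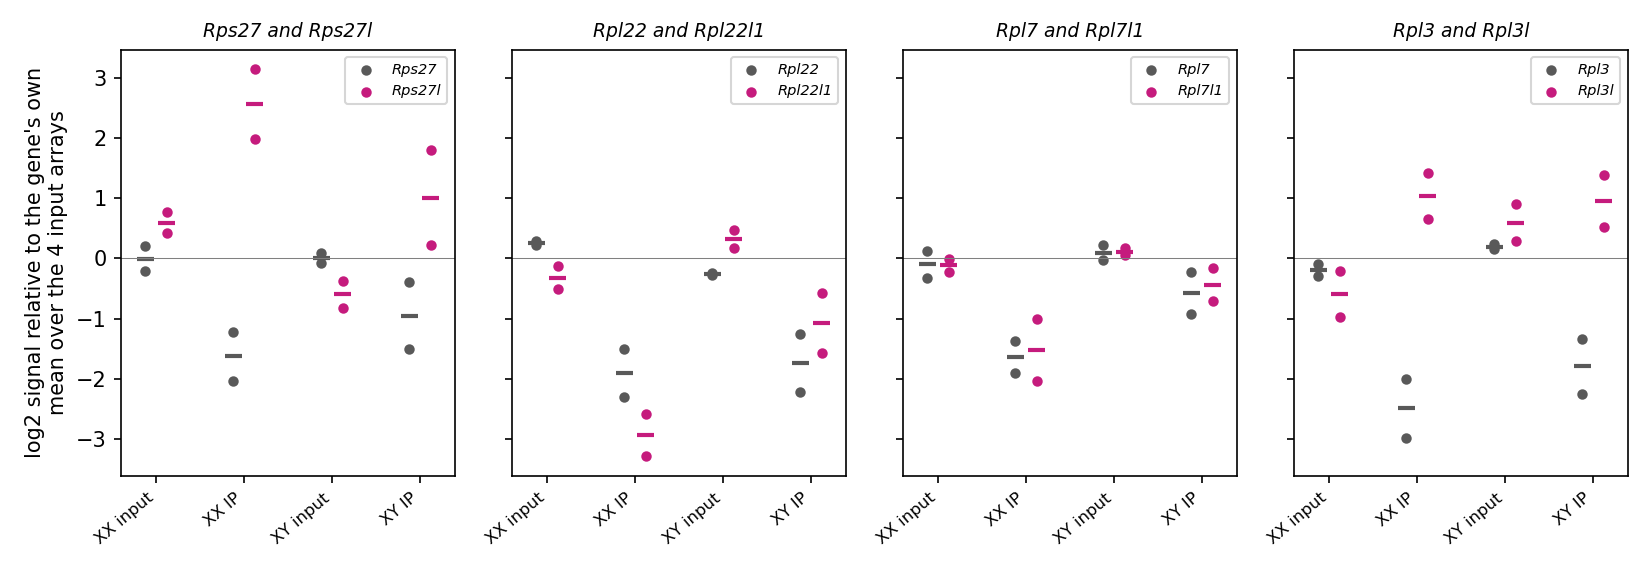
Log2 signal of 4 pairs of core gene and paralog on the XX input, XX IP, XY input and XY IP arrays, each gene relative to its own mean over the 4 input arrays, 1 point an array and a line at the mean of each group. Rps27l lies above its input in both IPs where Rps27 lies below, both genes of the Rpl22 and Rpl7 pairs lie lower in the IP than in the input of the same sex, and Rpl3l is not above background in the IPs.

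Probes of the same gene did not always give the same value. Of the 35 genes with more than 1 tested probe, 7 had probes of opposite sign in XX and 6 in XY, and the median range between a gene's probes was 0.66 and 0.69. Opposite calls were found for no gene in XX and for 1 in XY, Rpl27a, whose bright probe gave -2.51 and whose dim probe, above background on no XY array, gave 1.62. The files place 3 of the 134 probes on another chromosome than that of the gene in RefSeq, among them the probe used for Rpl10 (chromosome 13 in place of X). Near-identical processed copies of these genes are common in the genome, so a probe may also bind their transcripts. Rplp0 itself has 2 further probes under the older name Arbp, which gave -2.29 and -3.65 in XX and -1.60 and -3.21 in XY (adjusted p at most 0.0132, limma). All 3 probes fell in both sexes, by amounts from 2.29 to 4.09 in XX.

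Other genes, most of them of the translation machinery, were read from lists. Of 15 further transcripts known to carry a TOP tract, 11 (73.3%) fell and none rose in XX, with a median of -1.99, where 22.8% of all tested probes fell and 25.9% rose. In XY 10 (66.7%) fell and 1 rose, with a median of -1.57, where 20.6% of all tested probes fell and 20.2% rose. At matched input level the medians of these genes were -0.44 and -0.14. The following examples were chosen after their values were seen. Tpt1, a growth-related protein, changed by -3.15 in XX and -2.58 in XY (adjusted p = 0.000157 and 0.000585, limma), while Eef1a1, the main elongation factor that brings tRNA, gave 0.33 (adjusted p = 0.596, limma) and 0.69 (adjusted p = 0.274, limma). Nap1l1, a histone chaperone, was the one that rose in XY (2.39, adjusted p = 0.000794, limma). Proteins of the mitochondrial ribosome are made from separate nuclear genes without membership in the cytoplasmic ribosome. Of 75 such genes, 48 (64.0%) fell and 5 rose in XX (median -1.43), and 38 (50.7%) fell and 2 rose in XY (median -1.30), beside the same shares of all tested probes. At matched input level their medians were -0.65 and -0.51. The matched probes lay closer to them than to the cytoplasmic genes, so these medians are not ranked against those above. Mrps14 was an exception, with a rise of 3.27 in XX and 3.17 in XY (adjusted p = 0.000255 and 0.00042, limma).

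Ribosome biogenesis factors, which process rRNA and assemble the subunits, held genes called in both directions. Of 28 such genes, 12 fell and 7 rose in XX, and 12 fell and 6 rose in XY, with medians of -0.90 and -0.83. The shares that rose, 25% and 21.4%, were close to those of all tested probes, and 42.9% fell in each sex, not all of them the same genes. Among other probes with an input level between 2 and 4, where the median of this list lay, 39.3% fell in XX and 34.7% in XY. Ncl, the major nucleolar RNA-binding protein, gave -3.11 in XX and -3.81 in XY (adjusted p = 0.000246 and 0.000111, limma). Sdad1, which takes part in large subunit maturation, rose by 4.54 and 5.09 (adjusted p = 6.2e-05 and 1.7e-05, limma), and Rrs1, needed for assembly of the large subunit, by 3.73 and 2.99 (adjusted p = 0.000112 and 0.000424, limma). Fbl, the rRNA methyltransferase, rose by 1.63 and 2.32 (adjusted p = 0.0104 and 0.00206, limma). Markers of cell types moved as well: 5 of 7 germ cell markers rose in each sex, with medians of the 7 at 2.17 and 2.06 (Pou5f1 was called in XX as well, but was above background on neither XX IP), while 3 of 5 erythroid markers fell in XX and 2 of 5 in XY, with medians of -1.90 and -1.63. Of the somatic lists, 2 of 2 tested endothelial markers fell in both sexes, 1 of 5 Sertoli markers fell in XY, 1 of 4 Leydig markers fell in XX and 3 in XY, and of 2 tested markers of ovarian supporting cells 2 fell in XX and 1 in XY. Emx2, the 1 tested marker of mesonephros and epithelium, rose in XX, where 1 IP array was above background. The higher calls of Amh and Dhh in XX, and of Fst and Emx2 in XY, were between signals not above background on any array of that sex and are no measured rise. The part of cell composition in the values of the ribosomal protein genes was not tested.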

How the data were processed

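Anti-DAZL RIP and input RNA of E14.5 XX and XY gonads were measured on 8 one-colour arrays, 2 in each of 4 groups. The deposited scanner files give signal intensity per spot, background-subtracted but not scaled between arrays by Agilent Feature Extraction (9.5 in the submitters' notes, 9.5.3.1 per the file headers). The authors' value table holds log2 values that, per the study's methods, were floored at 1 and scaled to the 75th percentile. It followed the scanner values on every array (r at least 0.99996) with a constant offset near 5.05 and column medians of 1.62 to 4.05, so scale and direction are settled while the meaning of the constant is not given. It served as an alternative.

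Spots that the scanner software had called outliers were dropped, a signal floor of 1 was applied, spots of a probe were averaged, and log2 of the signal over the 75th percentile of the array was taken. Of 41174 probes, 73 had no usable spot on at least 1 array. A probe was tested if well above background on both arrays of any group, which left 18253. No spot was saturated. Models with 4 group means were fitted to all 8 arrays with limma 3.58.1 in R 4.3.3 (residual degrees of freedom 4, prior 7.81), with two-sided tests and Benjamini-Hochberg adjustment over the 18253 probes, and calls at an adjusted p under 0.05. The study set a limit of 4-fold, counted here beside the calls. The labels do not say whether replicates came from separate lots of gonads, so p-values measure the spread between these samples, which may be technical. The number of arrays limits the precision. The procedure was tested on simulated data.

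Each gene was read at its tested probe with the highest mean. Genes named were the 5 lowest and 5 highest in each sex, the 3 at each end of both comparisons between the sexes, genes set by role, and paralogs. The 5 lowest and highest were taken among genes well above background on both inputs of that sex. Genes, lists and rules were chosen with earlier results of these data known. Positions are on mm8 per the files, and RefSeq tables (GRCm38.p6) gave names and start sites. Accessions matched 112 of the 134 probes and symbols 22. Alternatives covered scaling, background correction, floor, filter, probe choice, replicate block, leaving out arrays, the arrays in the fit and matching.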

Additional observations from a re-analysis of the deposited data

How the results depend on the processing

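The median difference of the 80 genes was below 0 in both sexes under every scaling, correction and filter tried. In XX 62 genes fell, 48 to 66 when 1 array was left out. In XY the number was 49, and it was 29 with 1 common floor set after scaling, 24 with the 4-fold limit, and 27 to 59 when 1 array was left out. Other settings raised the counts, to 77 in XX and 67 in XY under 50th percentile scaling, 75 and 66 after quantile normalization, 75 and 65 with the percentile taken over probes above background on all arrays, 77 and 56 after normexp, and 77 and 73 with outlying backgrounds replaced. The 3 genes called higher in XX became 1 with the common floor, 1 after normexp correction, 1 with outlying local backgrounds replaced before it (chosen after seeing the data), 1 with the 4-fold limit and 0 under 50th percentile scaling. The 3 called higher in XY became 1, 0, 1, 1 and 0 under the same settings, and 0 to 4 when 1 array was left out. Normexp could not be fitted well on XY input replicate 1 and XY IP replicate 2, whose log2 values then had an SD of 0.95 and 0.75, against 1.75 and 1.19 with the outlying backgrounds replaced. No gene was called between the sexes, in IP or input, under any of these alternatives.

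The median at matched input level in XX (-0.39) was -0.25 with 50 nearest probes, -0.56 with all probes within 0.5, -0.46 with the other sex's input level, -0.46 with the mean over probes, -0.49 without ribosomal protein probes in the pool (chosen after seeing the data), and -0.44 to -0.38 when 1 array was left out. In XY (-0.25) it was -0.11 with 50 nearest probes, -0.15 with the other sex's level and -0.32 to -0.18 when 1 array was left out. The large minus small subunit gap in XX (0.01) was -0.40 with the mean over probes and -0.17 to 0.11 when 1 array was left out. In XY (0.09) it was 0.16 with the common floor, 0.067 after normexp, -0.020 with backgrounds replaced, 0.14 after quantile normalization, -0.074 with the mean over probes and -0.0012 to 0.16 when 1 array was left out. The cause of these changes was not tested.

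Of the 2356 values of the 32 named genes under the alternatives, 2182 kept their direction and their side of the threshold, 68 lost and 90 gained the call, and 16 reversed. The 50th percentile moves every probe of an array alike, so a sign that turns there says nothing of the gene's place among the probes. After normexp, with backgrounds as given, with backgrounds replaced, and under 50th percentile scaling, Rps27l was -0.21, -0.22 and -0.041 in XX and -0.36, -0.49 and -0.25 in XY, and Rpl31 was -0.52, -0.70 and -0.64 in XY. Rpl3l was -0.37 in XX and -1.50 in XY under 50th percentile scaling, and -1.03 and -1.71 after quantile normalization, all of them differences between signals near background. In XY, Rplp1 was -1.88 and Rplp2 -2.25 with backgrounds replaced, and Rplp2 was -0.76 after quantile normalization. Dim signals limit what can be read: 4 of the 80 genes were below background on at least 1 array.

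With the replicate number as a block, 65 genes fell in XX and 52 in XY, 3 rose in each, and none differed between the sexes. Same-numbered IP and input arrays correlated in their deviations by 0.07 in XX and 0.09 in XY over tested probes, and by 0.03 and 0.14 over probes above background on all arrays. With 2 numbers a sex and no label that ties input to IP, the numbers were not taken to pair the samples.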
